A study of Mus musculus with 5 samples.

Results

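The genes described here are 58 nucleolar factors that build the ribosome, measured by RNA-seq in follicular regulatory T (Tfr) cells. They were taken as a list of gene names, 58 of 57186 annotated genes, and all 58 were found and passed the filter on low values. The list was drawn up with the comparison of the genotypes already known, so the differences of these genes between genotypes are given as a description and not as a test. They are taken in the order in which a ribosome is made: transcription by RNA polymerase I, the box C/D and H/ACA particles, small subunit assembly and large subunit assembly.

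Tfr cells are CD4 T cells that express Foxp3 and move into the follicles of lymphoid organs, where they limit germinal centres. They were sorted from mouse spleen as live CD4 cells positive for Foxp3, CXCR5, PD-1 and ICOS, 21 days after treatment with imiquimod, which activates the sensor TLR7, in both groups. The WT group held 3 libraries from mice with a green fluorescent reporter of Foxp3, and the Cebpa_KO group held 2 libraries from Foxp3-Cre Cebpa-flox/flox mice, in which Cre expressed from Foxp3 removes the transcription factor C/EBP alpha from regulatory T cells. The groups thus differed in the Foxp3 allele as well as in Cebpa, the age of the mice is not given in the sources used here, and a library is a pool of cells from several mice. Ribosome production starts in the nucleolus, where RNA polymerase I transcribes the ribosomal RNA precursor. Small nucleolar RNAs in box C/D and H/ACA particles guide its methylation and pseudouridylation, while assembly factors fold it, cut it and load ribosomal proteins. The pathway consumes much of a growing cell's energy and is known to be induced when T cells are activated, with Myc as a well known inducer of its genes.

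Levels are TPM (a transcript level corrected for gene length) divided by 1 scaling factor per library, called scaled TPM below. Depth was even, at 6.76 to 7.08 gigabases aligned per library. Cebpa itself stood at 12.9, 17.7 and 12.8 in WT against 0.317 and 0.550 in Cebpa_KO, the direction the labels give (exact permutation test over the 5 libraries, two-sided, p = 0.1, the smallest that 10 splits allow). Of 10 markers of the sorted cells none was absent. In all 10 both Cebpa_KO libraries lay below every WT library, where 28% of all genes tested had groups separated in that direction. Of the 10, 7 were called lower in Cebpa_KO by limma over all genes (Benjamini-Hochberg adjusted p under 0.05), beside 9.82% of all genes tested. Foxp3 stood at 82.97, 107 and 105 in WT against 6.74 and 5.58 in Cebpa_KO. The 4 Y-linked genes Ddx3y, Eif2s3y, Kdm5d and Uty summed to 151 to 162 in WT and to 0 and 0.0311 in Cebpa_KO, so sex and genotype cannot be told apart. One WT library, replicate 3, differed from the other WT libraries. The heat shock gene Hspa1a was at 0.911, 0.684 and 690.3 in WT against 1147 and 1238 in Cebpa_KO, and all 20 cell cycle genes of a fixed list were lowest in WT replicate 3 among the WT libraries. The results below are therefore also given against each WT library.

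As a set, the nucleolar assembly genes were higher in Cebpa_KO. All 58 had a mean difference above 0, and in 57 of them both Cebpa_KO libraries lay above all 3 WT libraries, where 28.7% of all 16254 genes tested had groups separated in that direction. Summed over the 58 genes, the level was 3306, 3108 and 3593 in WT replicates 1, 2 and 3 and 6268 and 5903 in Cebpa_KO replicates 1 and 2. The mean was thus 1.82 times higher in Cebpa_KO, against 1.01 times for the sum of all genes tested. The median difference of the 58 genes was 0.80 on the log2(scaled TPM + 1) scale, against 0.01 for all genes tested. In the fit over all genes (limma, adjusted p under 0.05) 49 of the 58 were called higher and none lower, beside 9.93% of all genes called higher and 9.82% called lower. Since the list was made with this comparison known, nothing is read from these counts.

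The size of the difference varied within the set. By ratio of means it ran from 1.05 to 2.48 times, with a median of 1.78, and 16 genes were more than 2 times higher. 56 of the 58 differences were above the upper quartile of all genes tested, which was 0.33, and 19 were above their 95th percentile, which was 0.91. The lowest Cebpa_KO library was more than 1.5 times the highest WT library in 29 genes. The 9 genes not called were Polr1a, Ubtf, Taf1d, Nop58, Tcof1, Utp20, Heatr1, Bms1 and Nle1. Their median standard error was 0.20, against 0.11 in the 49 called genes, and their median difference was 0.56. These medians cover unlike genes. Ubtf, Bms1, Tcof1 and Polr1a had the smallest differences of the 58, at 0.08, 0.21, 0.34 and 0.36, with standard errors of 0.13, 0.11, 0.12 and 0.16. The limits of these values are the 2 Cebpa_KO libraries and the spread between pools. The calls rest on both Cebpa_KO libraries and were lost with either left out, which leaves 1 library in that group. The median difference was 0.78 without Cebpa_KO replicate 1 and 0.87 without Cebpa_KO replicate 2.

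**Figure D1:**
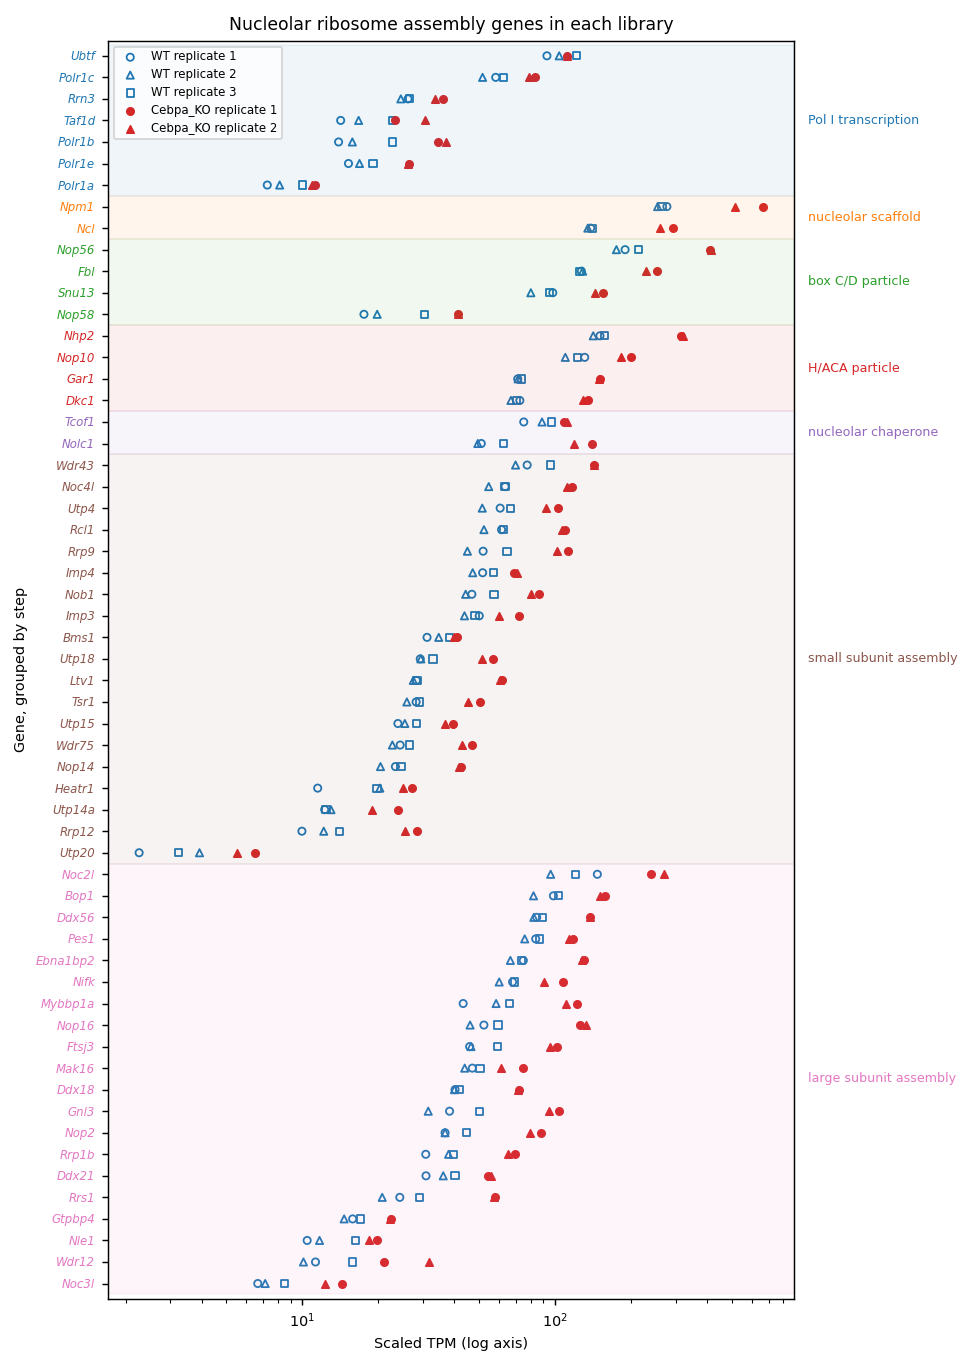
Scaled TPM of each of the 58 genes (rows, grouped by step and ordered by WT level) on a log axis, with 1 point per library, open blue for WT and filled red for Cebpa_KO. The red points lie to the right of every blue point in 57 rows, and Ubtf is the row where they overlap.

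The levels in WT show which factors these cells hold most transcript of. The WT mean was above the median of all genes tested, 13.6, in 51 of the 58 genes. Npm1 had the highest WT mean, 265.7, followed by Nop56 at 193 and Nhp2 at 149.9, and Utp20 the lowest, 3.14. By step the WT median was 202 for the scaffold pair, 109 for box C/D, 96.6 for H/ACA, 70.6 for the nucleolar chaperones, 43.9 for large subunit, 30.5 for small subunit and 17.9 for RNA polymerase I transcription. Steps overlapped in level, with the box C/D gene Nop58 at rank 46 and the polymerase gene Polr1c at rank 22. The first 4 genes held the same ranks in Cebpa_KO. Ubtf went from rank 8 to rank 20 and Nop16 from rank 26 to rank 14. Within WT the SD was small, with a median of 10.4% of the mean.

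RNA polymerase I transcription showed the smallest difference of the steps that hold more than 2 genes, with a median of 0.50 over 7 genes. Of these 4 were called higher, beside 9.93% of all genes tested. Polr1b (ENSMUSG00000027395, mm39 chromosome 2, 128942915 to 128968514, plus strand), the second largest subunit of the enzyme, was at 13.9, 15.8 and 22.8 in WT against 34.3 and 37.1 in Cebpa_KO. Both Cebpa_KO libraries were higher than all WT libraries, and WT replicate 3 was nearest to them. The difference was 1.02 (SE 0.22), and 0.62 against WT replicate 3 alone. Polr1a, the largest and catalytic subunit, stood at 7.26, 8.13 and 10.04 in WT against 11.3 and 10.96 in Cebpa_KO, a difference of 0.36 (SE 0.16) that was not called. Polr1c, a subunit shared with RNA polymerase III, went from 57.5 ± 5.53 to 81.3 ± 3.27 (SD, n = 3 and n = 2, here and below), and Polr1e, which supports initiation, from 17.03 ± 1.91 to 26.3 ± 0.132.

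The factors that bring the polymerase to the ribosomal DNA differed among themselves. Rrn3 (ENSMUSG00000022682, mm39 chromosome 16, 13598572 to 13632703, plus strand) encodes the growth-regulated factor TIF-IA that links the polymerase to its promoter. It stood at 26.2, 24.5 and 26.6 in WT against 36.1 and 33.5 in Cebpa_KO, a difference of 0.42 (SE 0.09). The gap was narrow beside that of Polr1b. Ubtf (ENSMUSG00000020923, mm39 chromosome 11, 102195386 to 102210568, minus strand), the factor UBF that coats active ribosomal DNA, was at 92.9, 104 and 122 in WT against 111 and 112 in Cebpa_KO. It was the only gene of the 58 whose groups overlapped: WT replicate 3 lay above both Cebpa_KO libraries. Its difference was 0.08 (SE 0.13), and its sign turned to -0.01 without WT replicate 1 and -0.13 when replicate 3 alone stood for WT. Taf1d, a subunit of the promoter selectivity factor, stood at 14.2, 16.7 and 22.7 in WT against 23.3 and 30.5 in Cebpa_KO and was not called. It was called, at 0.75, without WT replicate 3. Its highest WT library, replicate 3, came within 1 scaled TPM of the lower Cebpa_KO library.

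The promoters of these genes were searched for the E-box CACGTG, the letters that Myc with its partner Max is known to bind. The search was added after the values were seen. Promoter windows of 300 bases, from 250 before to 50 after the start, were taken from RefSeq on GRCm38.p6 and were present for 51 of the 58 genes. The E-box, which reads the same on both strands, was present for 12 of 51 genes, 23.5%. It was present for 16 of 94 other ribosome assembly genes, 17.0%, for 11.7% of the 9303 genes tested here that had a window, and for 8.09% of all 27025 genes. The 13 matches lie 5 before and 8 after the start. The stretch of Rrn3 is shown first because it holds the E-box 2 times. It covers the 250 bases before the start (GRCm38.p6, chr16:13780449-13780698, plus strand), with each E-box in capitals.
Rrn3: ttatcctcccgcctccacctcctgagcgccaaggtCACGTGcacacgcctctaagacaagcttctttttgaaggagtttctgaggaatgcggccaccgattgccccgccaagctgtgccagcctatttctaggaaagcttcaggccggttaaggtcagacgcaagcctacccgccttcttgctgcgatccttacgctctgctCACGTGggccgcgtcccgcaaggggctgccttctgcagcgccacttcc

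The other matches whose flanks lie inside the window are shown as 30 bases each, read along the gene's strand, so that the shared core in capitals and its differing flanks can be compared. Those of Imp4, Nop2 and Utp18 lie 121, 60 and 20 bases before the start. Those of Pes1, Utp4, Wdr43, Nle1, Tsr1 and Ltv1 begin at base 3, 16, 18, 24, 25 and 29 of the transcript. Utp20 and Mybbp1a hold it too, at bases 38 and 41.
Imp4 (chr1:34439696-34439725, plus): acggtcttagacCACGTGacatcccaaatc
Nop2 (chr6:125131811-125131840, plus): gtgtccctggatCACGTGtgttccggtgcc
Utp18 (chr11:93885769-93885798, minus): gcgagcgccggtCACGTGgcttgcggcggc
Pes1 (chr11:3963965-3963994, plus): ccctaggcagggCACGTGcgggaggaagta
Utp4 (chr8:106893643-106893672, plus): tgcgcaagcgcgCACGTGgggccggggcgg
Wdr43 (chr17:71616220-71616249, plus): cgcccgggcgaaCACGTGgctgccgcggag
Nle1 (chr11:82908355-82908384, minus): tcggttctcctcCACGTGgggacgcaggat
Tsr1 (chr11:74898092-74898121, plus): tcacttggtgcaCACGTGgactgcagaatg
Ltv1 (chr10:13193092-13193121, minus): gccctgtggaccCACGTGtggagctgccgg

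The median difference of the genes with an E-box was 0.77 over 12 genes, with a range of 0.42 to 1.10, and that of the 39 genes without one was 0.84, with a range of 0.08 to 1.32. The palindrome TTGCGCAA, a C/EBP recognition sequence, was present for 1 of the 51 genes, Bms1, and for 0 of 94 other ribosome assembly genes. It was present for 0.322% of the genes tested here that had a window. In Bms1 it lies 138 bases before the start (chr6:118419537-118419566, minus), and Bms1 had a difference of 0.21, the second smallest of the 58.
Bms1: tgaaagtgcgcTTGCGCAAccctcagccaa
The palindromic NRF1 motif was present in none of the 51 and in 4 of 94 other ribosome assembly genes, 4.26%. Its share among the genes tested here that had a window was 2.41%. Myc itself was at 113, 117 and 138 in WT against 252 and 211 in Cebpa_KO, a difference of 0.91 (SE 0.13, adjusted p = 0.0128, limma), beside 0.80 for the median of the 58 genes. It did not pass without WT replicate 2 (adjusted p = 0.0548), without Cebpa_KO replicate 1 or 2 (0.101 and 0.0767) or when replicate 3 alone stood for WT (0.0648). Its part in their difference was not tested.

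The nucleolar scaffold pair showed the largest median difference of any step, 1.07. Ncl (ENSMUSG00000026234, mm39 chromosome 1, 86272441 to 86287122, minus strand) encodes nucleolin, an RNA-binding protein that coats the nascent precursor. It was at 138, 135 and 141 in WT against 293 and 261 in Cebpa_KO, 2.01 times higher by means, with a difference of 1.00 (SE 0.08). The 3 WT libraries lay close together and both Cebpa_KO libraries far above them. Npm1 (ENSMUSG00000057113, mm39 chromosome 11, 33102287 to 33113206, minus strand) encodes nucleophosmin, which forms the granular outer layer of the nucleolus. It was at 277, 255 and 265 in WT against 666 and 515 in Cebpa_KO, 2.22 times higher, with a difference of 1.14 (SE 0.13). Here the Cebpa_KO libraries differed more from each other than the WT libraries did. Near-identical processed copies of Npm1, and of Snu13, Nhp2 and Nop10 described below, are known in the genome, so their levels are uncertain.

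The box C/D particle, which places ribose methyl groups, held 4 core proteins with a median difference of 0.90. Of these 3 were called higher, beside 9.93% of all genes tested. Fbl (ENSMUSG00000046865, mm39 chromosome 7, 27869135 to 27878694, plus strand) encodes fibrillarin, the methyltransferase. It was at 127, 129 and 125 in WT against 254 and 230.1 in Cebpa_KO, a difference of 0.92 (SE 0.08), with WT libraries that hardly differed. Nop56 (ENSMUSG00000027405, mm39 chromosome 2, 130116350 to 130121233, plus strand) and Nop58 encode the paired scaffold proteins that hold fibrillarin on the guide RNA. Nop56 was at 189, 175 and 215 in WT against 410.0 and 414 in Cebpa_KO, 2.13 times higher. Nop58 stood far lower, at 17.5, 19.8 and 30.3 in WT against 41.4 and 41.1 in Cebpa_KO, and with WT replicate 3 high among the WT libraries its difference of 0.88 (SE 0.24) was not called. It was called, at 1.10, when WT replicate 3 was left out. Snu13, which binds the kinked stem of the guide RNA, was at 97.97, 80.2 and 94.97 in WT against 155 and 144 in Cebpa_KO, the smallest difference of the 4 at 0.71.

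The H/ACA particle converts uridine to pseudouridine and also holds telomerase RNA. All 4 of its core proteins were called higher, beside 9.93% of all genes tested, and the median difference was 0.98. Dkc1 (ENSMUSG00000031403, mm39 chromosome X, 74139460 to 74153383, plus strand) encodes dyskerin, the pseudouridine synthase, and was at 72.6, 66.9 and 70.4 in WT against 134 and 129 in Cebpa_KO. Gar1, which helps release the product, was at 71.2, 71.5 and 73.4 in WT against 151 and 149 in Cebpa_KO, a difference of 1.05 with the smallest standard error of the 58 genes, 0.07. Nhp2, a relative of Snu13, was at 151, 142 and 158 in WT against 314 and 321 in Cebpa_KO, 2.12 times higher. Nop10, a small protein that supports the catalytic site, was at 131, 109.8 and 122 in WT against 199 and 182 in Cebpa_KO, a difference of 0.65. No gene of this particle overlapped between groups, where 28.7% of all genes tested had groups separated with Cebpa_KO higher. WT replicate 3 lay within or near the range of the other WT libraries in each of the 4 genes.

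Nolc1 and Tcof1 encode related phosphoproteins that link the polymerase with the small nucleolar particles, and their differences were 1.24 and 0.34. Nolc1 (ENSMUSG00000015176, mm39 chromosome 19, 46064302 to 46073969, plus strand) was at 51.1, 49.5 and 62.5 in WT against 139.6 and 119 in Cebpa_KO, 2.38 times higher, with a difference of 1.24 (SE 0.14). Tcof1, which encodes treacle, was at 75.2, 88.8 and 96.6 in WT against 109 and 111 in Cebpa_KO. Its groups did not overlap, but the difference of 0.34 (SE 0.12) was not called with all libraries. Without WT replicate 3 it was called, at 0.42. The difference between the 2 genes was not tested.

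Small subunit assembly held 19 genes with a median difference of 0.78. All 19 had groups that did not overlap, where 28.7% of all genes tested had groups separated with Cebpa_KO higher. Of the 19, 16 were called higher, beside 9.93% of all genes tested. As the list was made with this comparison known, nothing is read from these counts. The largest difference was that of Rrp12 (ENSMUSG00000035049, mm39 chromosome 19, 41851290 to 41884612, minus strand), a factor in export of the small subunit precursor, at 9.96, 12.1 and 14.1 in WT against 28.4 and 25.5 in Cebpa_KO. This was 2.24 times higher, with a difference of 1.11 (SE 0.16). Ltv1, another factor of the exported precursor, was at 28.3, 27.5 and 28.4 in WT against 61.6 and 60.8 in Cebpa_KO. Its libraries within each group differed by little beside the gap between the groups, at a difference of 1.10 (SE 0.08). Rrp9, a protein of the box C/D particle whose guide RNA pairs with the precursor, was at 51.9, 45.00 and 64.6 in WT against 113 and 102 in Cebpa_KO.

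Several small subunit factors act as partners. Noc4l and Nop14, which bind each other, were at 63.4, 54.6 and 63.4 and at 23.3, 20.4 and 24.6 in WT. In Cebpa_KO they were at 116 and 112 and at 42.3 and 41.8, differences of 0.91 and 0.86. Rcl1 and the GTPase Bms1, are also a known pair. Rcl1 was at 61.4, 52.3 and 62.4 in WT against 109.8 and 106 in Cebpa_KO, a difference of 0.87 (SE 0.10). Bms1 was at 31.1, 34.6 and 38.4 in WT against 40.8 and 39.8 in Cebpa_KO, a difference of 0.21 (SE 0.11) that was not called, with WT replicate 3 close below the Cebpa_KO libraries. Imp3 and Imp4, which help the guide RNA pair with the precursor, had differences of 0.47 and 0.43, with Imp4 at 51.7, 47.2 and 56.9 in WT against 69.1 and 70.9 in Cebpa_KO. Whether partners differed from each other was not tested.

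The remaining small subunit genes lay between these. Of the UTP-A complex, which loads first onto the precursor, Utp4, Utp15 and Wdr43 went from 59.6 ± 7.59 to 97.8 ± 7.60, from 25.8 ± 2.20 to 38.2 ± 1.95 and from 80.99 ± 13.3 to 143 ± 0.189. Wdr75 of that complex was at 24.4, 22.7 and 26.6 in WT against 46.8 and 42.9 in Cebpa_KO. Heatr1, a large protein of the same complex, was at 11.5, 20.3 and 19.7 in WT against 27.1 and 25.1 in Cebpa_KO, and with WT replicate 1 low its difference of 0.62 had the largest standard error of the 58 genes, 0.26. Utp18, of the UTP-B complex, went from 30.5 ± 2.05 to 54.02 ± 3.97. Utp14a, which activates a helicase, went from 12.5 ± 0.384 to 21.3 ± 3.61. Utp20, a very large protein and the gene with the lowest level of the set, was at 2.26, 3.92 and 3.23 in WT against 6.48 and 5.51 in Cebpa_KO and was not called. The late factors Nob1, the nuclease that trims the end of the small subunit RNA, and Tsr1, which resembles a GTPase, went from 49.5 ± 6.89 to 83.5 ± 4.26 and from 27.7 ± 1.65 to 47.99 ± 3.77.

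Large subunit assembly held 20 genes with a median difference of 0.82. All 20 had groups that did not overlap, where 28.7% of all genes tested had groups separated with Cebpa_KO higher. Of the 20, 19 were called higher, beside 9.93% of all genes tested. As the list was made with this comparison known, nothing is read from these counts. Gnl3 (ENSMUSG00000042354, mm39 chromosome 14, 30734390 to 30741109, minus strand) encodes nucleostemin, a nucleolar GTPase abundant in proliferating cells, and had the largest difference of the 58 genes. It was at 38.2, 31.5 and 50.4 in WT against 104 and 94.8 in Cebpa_KO, 2.48 times higher, with a difference of 1.32 (SE 0.20). WT replicate 3 was the highest WT library, and against it alone the difference was 0.97. Nop16, a factor of early precursors, was at 52.3, 46.1 and 59.5 in WT against 126 and 133 in Cebpa_KO, a difference of 1.29 (SE 0.12) that was 1.11 against WT replicate 3 alone. Rrs1, which helps bring in the small RNA particle of the large subunit, was at 24.3, 20.7 and 29.2 in WT against 57.9 and 57.5 in Cebpa_KO, 2.33 times higher.

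Nop2, a methyltransferase whose E-box is printed above, was at 36.7, 36.7 and 44.7 in WT against 88.03 and 79.8 in Cebpa_KO, a difference of 1.08 (SE 0.12). Both Cebpa_KO libraries were far above the highest WT library. Noc2l was at 147, 96.1 and 120.5 in WT against 240.2 and 269 in Cebpa_KO, with WT libraries that spread widely, while its partner Noc3l went from 7.43 ± 0.962 to 13.3 ± 1.46. Mybbp1a, which is known to act on both transcription and processing of the precursor, was at 43.3, 58.4 and 65.97 in WT against 122 and 110.1 in Cebpa_KO. At the other end, Pes1 was at 83.9, 75.9 and 86.5 in WT against 118 and 113 in Cebpa_KO, and the GTPase Gtpbp4 at 15.8, 14.6 and 16.9 in WT against 22.3 and 22.3 in Cebpa_KO. Even in these genes, with differences of 0.49 and 0.47, the groups were well apart.

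Pes1, Bop1 and Wdr12 form 1 complex and stood at different levels. Bop1 went from 94.8 ± 11.2 to 154 ± 4.88, near Pes1, whereas Wdr12 stood at 11.3, 10.1 and 15.8 in WT against 20.99 and 31.6 in Cebpa_KO. On the log2 scale its Cebpa_KO libraries lay farther apart than those of any other of the 58 genes, with replicate 2 high. The helicases Ddx18, Ddx21 and Ddx56 went from 40.7 ± 1.03 to 71.6 ± 0.179, from 35.7 ± 4.66 to 55.3 ± 1.06 and from 85.4 ± 3.38 to 137 ± 0.195. The methyltransferase Ftsj3 went from 50.5 ± 7.51 to 98.5 ± 4.28, Rrp1b from 36.2 ± 4.74 to 67.3 ± 3.36 and Ebna1bp2 from 71.7 ± 4.51 to 129.6 ± 1.72. Nifk, which binds the proliferation protein encoded by Mki67, and Mak16 had smaller differences, 0.58 and 0.51. Nle1 was at 10.4, 11.7 and 16.2 in WT against 19.7 and 18.4 in Cebpa_KO and was not called, although it was, at 0.73, without WT replicate 3.

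**Figure D2:**
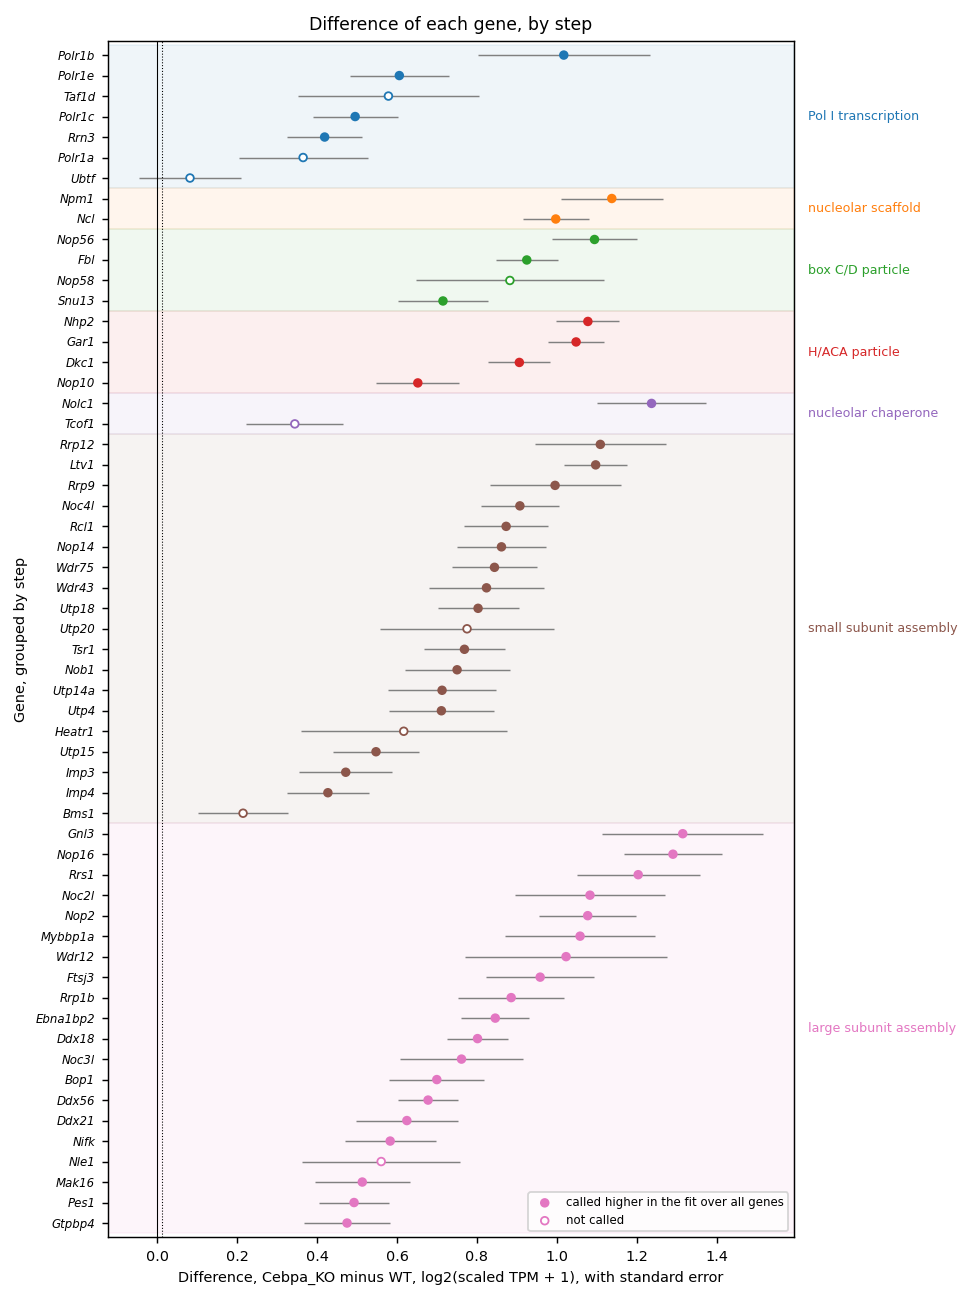
Difference of Cebpa_KO minus WT on the log2(scaled TPM + 1) scale (x axis) for each of the 58 genes (rows, grouped by step), with bars for the standard error, filled points for the 49 genes called higher in the fit over all genes and open points for the other 9. The dotted line is the median of all genes tested, 0.01, and every point lies to its right.

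Other genes of the pathway were read from a list that holds none of the 58 and was drawn up from textbook knowledge of the pathway. It had 115 genes tested and Naf1 below the filter. This list too was chosen with earlier results of these data known, so its counts are a description. In limma over all genes 60 of the 115 were called higher in Cebpa_KO and 1 lower, beside 9.93% and 9.82% of all genes. Their median difference was 0.45 and the summed level of the list, Naf1 included, went from 6365 ± 209 to 8603 ± 75.8. By step, 20 of 39 small subunit genes, 28 of 47 large subunit genes and 6 of 13 exosome genes were called higher. So were 5 of 8 genes of small nucleolar particle biogenesis and 1 of 8 RNA polymerase I genes, the last near the 9.93% of all genes. A difference above 0 was seen in 34, 46, 13, 8 and 6 genes of these steps, in the same order, against 50.9% of all genes tested. The counts of calls rest on both Cebpa_KO libraries: the calls were lost without either of them, which leaves 1 library in that group. Without WT replicate 2 the counts were 18 higher and 0 lower, beside 2.74% of all genes called higher.

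Named by the smallest p, the higher small subunit genes were Pno1, a partner of Nob1, from 30.9 ± 3.00 to 81.9 ± 1.16 (adjusted p = 0.00543, limma), Mphosph10, a partner of Imp3 and Imp4, from 26.95 ± 3.17 to 52.7 ± 2.01, and Wdr46, from 56.6 ± 4.85 to 94.3 ± 2.36. The large subunit genes were Mrto4, from 52.9 ± 4.91 to 119 ± 1.51 (adjusted p = 0.00633, limma), Ppan, from 49.5 ± 4.80 to 113 ± 2.38, and Rsl1d1, from 126 ± 7.31 to 229 ± 4.72. Ruvbl1, an ATPase that assembles the box C/D particle, rose by 0.82 on the log2 scale, and Znhit6 and Znhit3, which act with it, by 0.86 and 0.54. Exosc2, Exosc6 and Mphosph6, of the exosome that trims the precursor, rose by 0.82, 0.81 and 0.98. In the RNA polymerase I group Polr1g rose by 0.85 (adjusted p = 0.0106, limma) while Taf1c, of the same promoter factor as Taf1d, was the 1 gene called lower, at 30.6, 29.3 and 31.7 in WT against 20.2 and 20.5 in Cebpa_KO (difference -0.56, adjusted p = 0.0169, limma). Ttf1, which ends transcription of the ribosomal RNA genes, also had both Cebpa_KO libraries below all WT libraries, at 20.3, 19.9 and 22.2 in WT against 16.7 and 16.6 in Cebpa_KO, and was not called. It was named after its values were seen. Each gene named in this list failed to pass without either Cebpa_KO library. Polr1g, Znhit3 and Taf1c also did not pass when replicate 3 alone stood for WT (adjusted p = 0.0501, 0.0618 and 0.0527), and Znhit3 and Taf1c did not pass without WT replicate 2 (0.0673 and 0.0548).

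**Figure D3:**
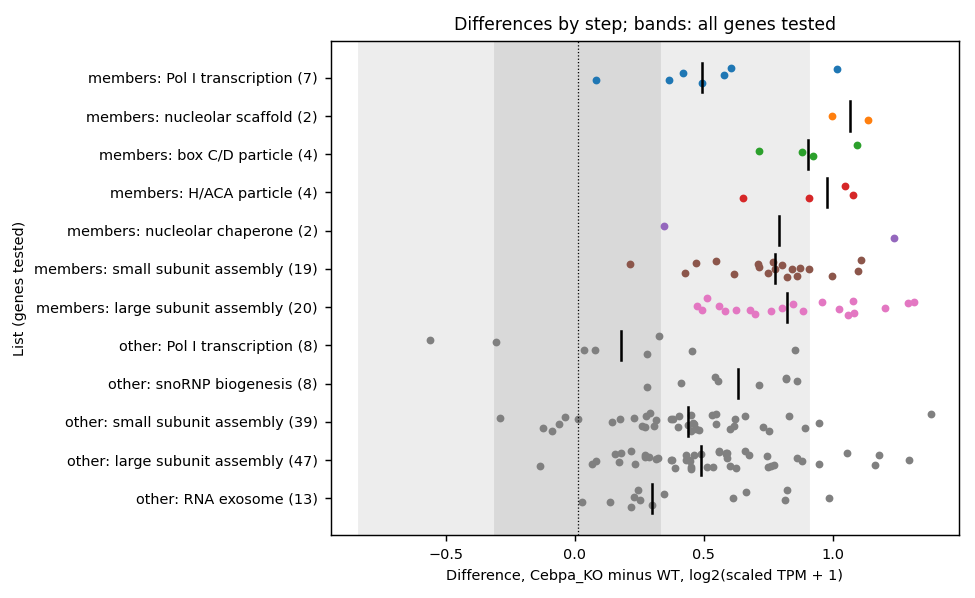
Difference of Cebpa_KO minus WT on the log2(scaled TPM + 1) scale (x axis) for each gene of the 58, by step in colour, and of the 115 other ribosome assembly genes tested, by step in grey, with black ticks at the step medians. The dark and light bands hold the middle 50% and 90% of all genes tested and the dotted line is their median, and the medians of both lists' RNA polymerase I groups, 0.50 and 0.18, lie left of the small and large subunit medians of the same list.

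Set against each WT library alone, the 58 genes kept their direction in nearly every case. The median difference was 0.83 against WT replicate 1, 0.90 against WT replicate 2 and 0.68 against WT replicate 3, with 58, 58 and 57 genes above 0. WT replicate 3 was the highest WT library for 46 of the 58 genes and the lowest for 1, against 5929 and 6028 of the 16254 genes tested. Its excess over the mean of WT replicates 1 and 2 had a median of 0.19 over the 58 genes, largest in RNA polymerase I transcription, at 0.31, and near 0 in the scaffold and H/ACA genes, at 0.02 and 0.04. Between the Cebpa_KO libraries, replicate 1 was the higher for 45 of 58 genes, with a median difference of 0.07. Without WT replicate 3, 52 of the 58 were called, beside 13.7% of all genes called higher. Fewer were called when replicate 3 alone stood for WT, which leaves 1 library in that group.

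Lists of stress and cell cycle genes, which set WT replicate 3 apart, are given beside these values. Over 12 stress and immediate early genes the summed level was 1404, 1496 and 5837 in WT against 6631 and 7049 in Cebpa_KO. Of these genes 2 were called higher, 16.7%, beside 9.93% of all genes tested. The median difference of the stress genes was 1.80, 2.04 and 0.06 against WT replicates 1, 2 and 3. Over 20 cell cycle genes the summed level was 3939, 3924 and 2167 in WT against 4756 and 4807 in Cebpa_KO, and the median difference was 0.22, 0.11 and 1.12 against WT replicates 1, 2 and 3. Of the 20 cell cycle genes 4 were called higher, beside 9.93% of all genes tested. These were Mcm2, Mcm3, Mcm5 and Mcm6, subunits of the replicative helicase, with differences of 0.82, 0.78, 0.73 and 0.52. They were above WT replicates 1 and 2 as well, with Mcm2 at 148, 156 and 128 in WT against 260.3 and 247 in Cebpa_KO. Cdc6, which loads that helicase, was at 31.8, 29.8 and 18.5 in WT against 52.2 and 48.4 in Cebpa_KO and was not called. Ccnb1, which encodes a mitotic cyclin, was at 211, 206 and 98.2 in WT against 195 and 202 in Cebpa_KO, with overlapping groups. Cdc6 and Ccnb1 were named after their values were seen. Mki67 was at 32.3, 50.2 and 19.99 in WT against 32.4 and 34.8 in Cebpa_KO, and its difference of 0.07 turned to -0.26 without WT replicate 3. The part of stress and cell cycle genes in the difference of the nucleolar genes was not tested.

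**Figure D4:**
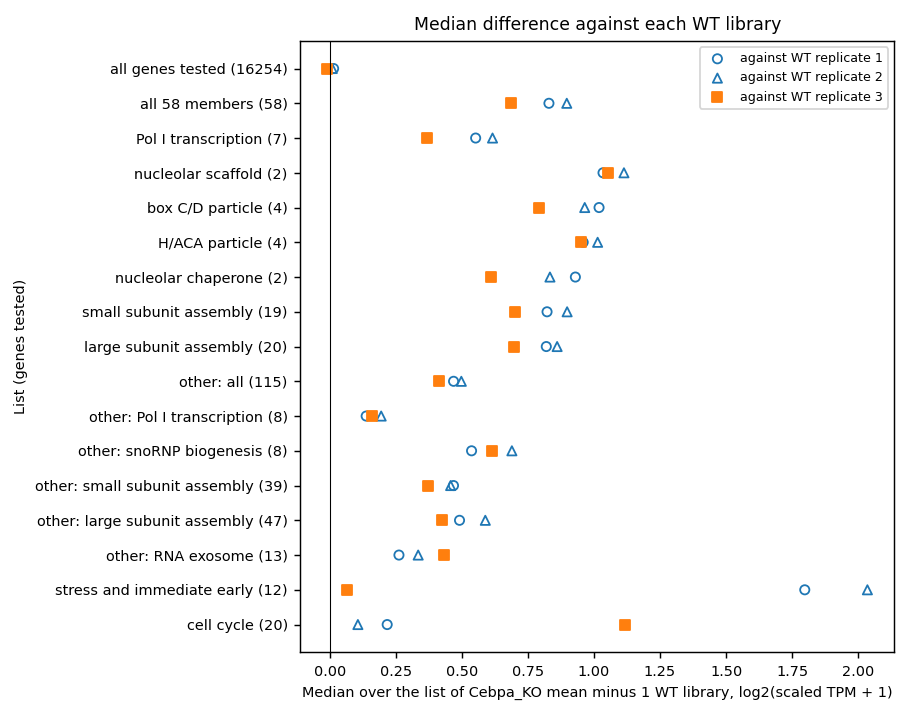
Median over each list of the Cebpa_KO mean minus 1 WT library, on the log2(scaled TPM + 1) scale (x axis), for WT replicates 1 and 2 (open blue) and 3 (orange), with the number of genes tested in brackets. The 58 nucleolar genes lie at 0.83, 0.90 and 0.68 against WT replicates 1, 2 and 3, the stress genes at 1.80, 2.04 and 0.06 and the cell cycle genes at 0.22, 0.11 and 1.12.

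RNA of other cells differed between libraries as well. Counts of called markers stand beside 9.93% of all genes tested called higher and 9.82% called lower. Of 6 erythroid markers none was called. Their summed level was 90.1, 61.0 and 709.9 in WT replicates 1, 2 and 3 and 2137 and 235 in Cebpa_KO replicates 1 and 2. Of 8 neutrophil markers, 7 of them tested, none was called, though all 7 had differences above 0, from 1.69 to 2.56. In 2 of the 7 both Cebpa_KO libraries lay above every WT library, beside 28.7% of all genes tested. The neutrophil sums were 24.9, 16.2 and 121.5 in WT against 451 and 102 in Cebpa_KO. WT replicate 3 was thus the highest WT library in both sums. Of 8 B cell markers, 6 tested, only Cd22 was called, lower, with sums of 135 to 184 in WT and of 253 and 56.9 in Cebpa_KO replicates 1 and 2. Of 7 plasma cell markers Ighg1 was called, higher, with sums of 993 to 9905 in WT and 2082 to 5160 in Cebpa_KO. Of 7 macrophage and monocyte markers, 4 tested, none was called, with sums of 60.3 to 109 in WT and 49.6 to 124 in Cebpa_KO, and of 6 NK and CD8 markers, 5 tested, Klrb1c was called, lower, with sums of 68.3 to 72.0 and 35.8 to 37.4. Cebpa_KO replicate 1 had the highest erythroid, neutrophil, B cell and macrophage sums of the 5 libraries and WT replicate 3 the highest plasma cell sum. The part of these cells in the difference of the nucleolar genes was not tested. In pooled cells a change in the share of a cell type and a change in RNA per cell cannot be told apart.

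**Figure D5:**
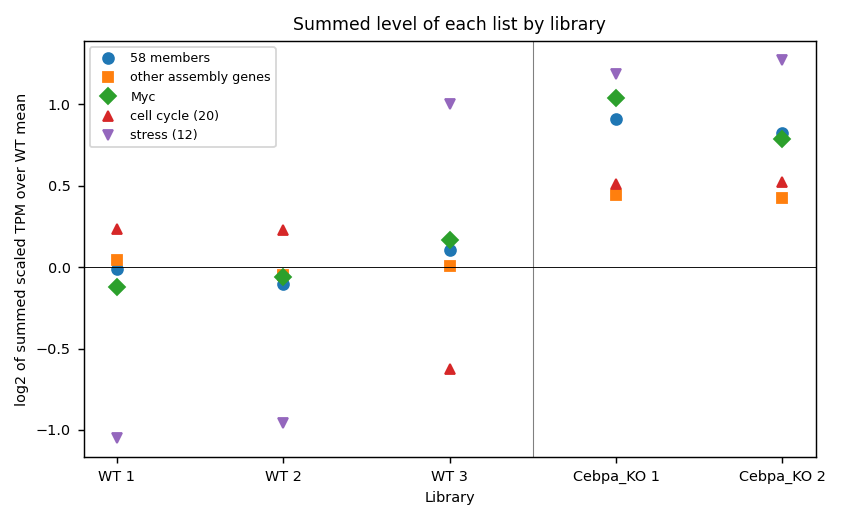
Summed scaled TPM of 5 lists in each library (x axis), as log2 of the ratio to the WT mean (y axis). The 58 nucleolar genes and Myc lie near 0 in the 3 WT libraries and near 0.8 to 1.0 in both Cebpa_KO libraries, while the stress and cell cycle lists separate WT replicate 3 from WT replicates 1 and 2.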

How the data were processed

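RNA from 5 libraries was sequenced after full-length low-input cDNA synthesis, per the labels' protocols. Alignment used STAR 2.7.11b and quantification StringTie 2.1.3b on mm39, per the submitters' processing notes. The annotation release and whether counting used strand are not stated in those notes, and 16 of the 58 genes overlap an expressed gene on the other strand, whose reads cannot be told apart. The authors' TPM column is handled as a score: its assembled loci add up to 1000000, and its annotated genes give 96.7% to 97.6% of that again. Annotated rows were used. Coverage, a signal per base deposited by the authors, and the authors' FPKM served only for depth. Without counts, counting error is unknown.

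TPM was divided by the library's median ratio to the geometric mean, over genes at 1 or more in all libraries (factors 0.984 to 1.04). The 16254 genes with TPM of 1 or more in 2 or more libraries were fitted on log2(scaled TPM + 1) with limma 3.58.1 (R 4.3.3), intensity trend, Benjamini-Hochberg adjustment and a threshold of 0.05. This scale understates changes of low genes. The p-values reflect only how far pools of 1 genotype differ. Alternatives were pseudocounts of 0.1 and 5, other filters and scalings, array weights, a replicate block, each library left out, and replicate 3 alone for WT. The genes, lists and the rule for named genes (core factors, the 6 largest and 2 smallest differences in each subunit step, and up to 3 other pathway genes per step and direction by p) were chosen with earlier results of these data known, and the promoter search and the Y-linked genes were added after the values were seen. Other tools were pandas 2.3.3, numpy 2.4.6 and matplotlib 3.10.9. Promoter positions are on GRCm38.p6 and gene positions on mm39.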

Additional observations from a re-analysis of the deposited data

How the results depend on the processing

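In every setting tried 57 or 58 of the 58 nucleolar genes had a difference above 0, and the median lay between 0.68, when replicate 3 alone stood for WT, and 0.87. Ubtf was the exception, at -0.00990 to 0.18 when 1 library was left out (-0.00990 without WT replicate 1) and -0.13 when replicate 3 alone stood for WT. Counts of calls moved more. With no filter, 38302 genes were tested and 1559 called, 21 of the 58 and 29 of the other ribosome assembly genes among them. Array weights called 5015 genes. When replicate 3 alone stood for WT, 1661 genes, 28 of the 58 and 22 of the other assembly genes were called. Leaving out 1 library gave 23 to 4002 genes, 0 to 52 of the 58 and 0 to 65 of the other assembly genes, and medians of 0.78 to 0.87. The 0 came from leaving out either Cebpa_KO library, which leaves 1 library in that group, assumed to vary like WT. Leaving out WT replicate 1 or 2 left 31 and 25 of the 58 called, beside 6.03% and 2.74% of all genes called higher. Cebpa stayed at -3.54 to -3.27 when 1 library was left out, with an adjusted p = 0.0512 without Cebpa_KO replicate 2 (limma). Mki67 was at -0.17 with array weights, -0.26 with the replicate block and -0.26 to 0.39 when 1 library was left out (-0.26 without WT replicate 3), and was called, at 0.71, only when replicate 3 alone stood for WT (adjusted p = 0.0498, limma). The cause of these changes was not tested. Replicate numbers are shared between groups, but nothing in the labels ties same-numbered libraries. Deviations from the group means correlated at -0.179 across genes for number 1 and 0.269 for number 2. Between unlike numbers, WT replicate 3 and Cebpa_KO replicate 1 correlated at 0.315. The deviations of the 2 Cebpa_KO libraries mirror each other, so these values cannot decide whether numbers are paired. No Cebpa_KO library is numbered 3, so the replicate block takes up WT replicate 3 and leaves the genotype difference to replicates 1 and 2. That setting is therefore close to leaving out WT replicate 3 and is not a separate check. With the replicate block 2409 genes, 47 of the 58 and 41 of the other assembly genes were called. Taf1d was among the 47 (0.76, adjusted p = 0.0386, limma). Taf1c and Znhit3 were not called (adjusted p = 0.0524 and 0.0625, limma). The same number of genes as reported, 49, was called with a pseudocount of 0.1 and with unscaled TPM. Without read counts, the depth behind low genes such as Utp20 is unknown.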

Other observations

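Several of the 58 genes carry small nucleolar RNA genes inside them, by the mm39 coordinates of the deposited tables and gene types of GENCODE M21. These were 8 of 58 genes, 13.8%, with 27 small nucleolar RNA genes on the same strand, against 219 of 21744 protein-coding genes, 1.01%. The 58 all passed the filter on low values and the 21744 were not filtered, so the 2 shares are not from like sets. Taf1d held 7, Nop56 held 5, Nop58 held 4, Gnl3 and Wdr43 held 3 each, Ncl and Tsr1 held 2 each and Dkc1 held 1. The host genes had a median difference of 0.89, with a range of 0.58 to 1.32, and the 50 genes that hold none had a median of 0.77, with a range of 0.08 to 1.29. In Nop56 the row of Gm23187 stood at 56.4, 50.6 and 55.2 in WT against 83.2 and 84.4 in Cebpa_KO, and that of Snord57 at 4.01, 6.25 and 9.42 in WT against 12.3 and 15.9 in Cebpa_KO. In Ncl the row of Snora75 stood at 5.69, 3.67 and 11.2 in WT against 17.8 and 13.4 in Cebpa_KO. In Taf1d the row of Gm23455 stood at 5.51, 6.05 and 5.17 in WT against 3.67 and 3.71 in Cebpa_KO. These 4 rows were chosen after their values were seen, and whether they hold the mature small RNA or host precursor was not tested.

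Overlap with a gene on the other strand touched Dkc1, where Mpp1 went from a mean of 116.4 in WT to 44.9 in Cebpa_KO, Noc2l, where Samd11 went from 27.3 to 6.74, and Mak16, where Tti2 went from 5.22 to 13.7. In Nop56 the overlapping gene Idh3b stood at 159 and 154. These 4 were chosen after their values were seen, out of 16 genes with such an overlap.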
